A study of Homo sapiens with 6 samples.

Results

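NEAT1, MALAT1 and 5 genes for proteins of the paraspeckle (NONO, SFPQ, PSPC1, RBM14 and TARDBP) were described across 6 libraries of HuCCT-1, an established human cell line from a bile duct cancer (cholangiocarcinoma). The 7 genes were found by symbol among the 60605 genes of the deposited table, and all 7 passed the filter on low counts. The set was chosen by the measured fall of NEAT1 in CPM between these same groups, so the NEAT1 values are given as a description, with no test. The JNJ libraries (n = 3) came from cells kept for 4 days with 6 nM of JNJ-64619178, which blocks PRMT5, an enzyme that methylates arginines on proteins, and the DMSO libraries (n = 3) from cells given an equal volume of the solvent. The question was what blocking PRMT5 does to the RNA of such cells, with 1 cell line and 1 dose. Polyadenylated RNA was sequenced, and totals ranged from 23931991 to 28224911 counts in the JNJ libraries and from 28133746 to 30691914 in the DMSO libraries. Nothing in the labels says that replicates were cultured separately, so the spread behind each p-value is that of these samples and may be technical.

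A paraspeckle is a small body in the cell nucleus that is built on NEAT1, a long non-coding RNA made in a short polyadenylated form and a long form that shares its start. The long form is the scaffold, and its end is cut by RNase P and not polyadenylated in the usual way. The RNA is bound by NONO, SFPQ and PSPC1, which form the DBHS family (Drosophila behaviour, human splicing) and pair with each other, and by RBM14 and other proteins that hold the body together. Paraspeckles retain some RNAs and proteins in the nucleus and grow under stress. MALAT1, the neighbouring non-coding RNA, gathers instead in nuclear speckles, where splicing factors are stored, and its end is also cut by RNase P and protected by a triple helix.

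NEAT1 (ENSG00000245532) lies on the plus strand of chromosome 11 from 65422774 to 65445540, and MALAT1 (ENSG00000251562) on the same strand from 65497688 to 65506516, 52147 bases further on (GENCODE release 29, GRCh38). That annotation gives NEAT1 8 transcripts of 512 to 22743 bases and MALAT1 17 transcripts of 132 to 8708 bases, and the longest of each has 1 exon. The deposited counts are per gene, so the short and long forms of NEAT1 cannot be told apart, and a polyadenylated library may hold little of the long one.

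The start sites of the members are shown because they differ in their core elements. RefSeq promoter windows (GRCh38.p14, 250 bases before to 50 after the start) were given for 5 of the 7 genes, and NEAT1 and SFPQ had none. The NONO, PSPC1 and TARDBP windows share the letters CGCCATTTT, a match to CGCCATNTT, the core bound by the factor YY1, at or shortly before the start. The downstream of the MALAT1 windows holds a TATA box instead. Capitals mark these motifs in the 60-base stretches below, each written 5′ to 3′ along the gene's strand.
NONO, chrX:71283567-71283626, plus strand: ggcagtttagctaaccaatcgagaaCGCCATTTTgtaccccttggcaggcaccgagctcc
PSPC1, chr13:19782931-19782990, minus strand: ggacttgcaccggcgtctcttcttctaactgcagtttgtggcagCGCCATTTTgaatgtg
TARDBP, chr1:11012609-11012668, plus strand: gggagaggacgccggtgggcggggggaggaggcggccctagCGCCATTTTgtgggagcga
MALAT1, chr11:65498988-65499047, plus strand: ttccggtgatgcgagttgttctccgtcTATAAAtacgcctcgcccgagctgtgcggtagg

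The CGCCATNTT motif was chosen after the windows had been read, and both strands were searched. It begins at base -43 of NONO, -4 of TARDBP and -1 of PSPC1, counted from the start, and was found in 3 of the 6 windows of members, against 3.19% of 35116 windows of all genes. TATAAA, also searched on both strands, was in 1 of the 6 windows and in 11.5% of all, and it begins at base -30 of MALAT1. On the gene's own strand and starting 40 to 20 bases before the start, TATAAA was in 2.3% of all windows. The RBM14 window and the upstream MALAT1 window held neither motif. The motifs do not overlap in these windows. The 3 genes that carry CGCCATTTT did not move together: NONO was higher with the inhibitor, TARDBP was lower and PSPC1 did not pass the test, as described below. The windows of MALAT1 also differ in base composition, with 73.7% G and C at the upstream start and 46.0% at the downstream start (median of all windows 58.7%).

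After 4 days of inhibitor NEAT1 stood at 0.454 times its DMSO level, while MALAT1, its neighbour, was not lower in any test made. Among the protein genes NONO was slightly higher, RBM14 and TARDBP slightly lower, and SFPQ and PSPC1 did not pass the test. Of the 6 members other than NEAT1, 2 were higher and 2 lower at an edgeR adjusted p under 0.05. Of all 17371 genes tested 37.1% passed in either direction, 20% higher and 17.1% lower. The share was 56.2% of the 1728 genes with a mean of at least 100 CPM, a level that PSPC1 and RBM14 did not reach. The groups did not overlap for 4 of these 6 members, against 47.0% of all genes (24.7% with JNJ above and 22.2% with JNJ below). Levels are TMM-scaled CPM (library-scaled counts, where TMM is edgeR's trimmed mean scaling), and log2 fold changes are JNJ over DMSO. In bulk RNA, fewer cells with a transcript and less of it per cell cannot be told apart.

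NEAT1 was counted at 2296, 2543 and 2179 CPM in the JNJ libraries, against 5293, 5274 and 4884 CPM in the DMSO libraries. Every JNJ library lay below every DMSO library. The means were 2339 ± 186 CPM with the inhibitor and 5150.3 ± 231 CPM with DMSO (SD, n = 3 each), a log2 fold change of -1.14 (SE 0.06). By abundance NEAT1 ranked 20th to 26th of all genes in the JNJ libraries and 13th in each DMSO library. Among the 85 most abundant genes by mean CPM, no other had so low a fold change. That place restates the NEAT1 fall that chose the set, so it is a description and not a separate finding.

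MALAT1 had 1253, 1381 and 991 CPM in the JNJ libraries, against 1116, 969 and 1070.4 CPM in the DMSO libraries. The groups overlapped, since JNJ replicate 3 lay below DMSO replicates 1 and 3. The mean was 1208 ± 199 CPM with the inhibitor and 1052 ± 75.4 CPM with DMSO (SD, n = 3 each). The log2 fold change of 0.20 (SE 0.08) was only just past the threshold by edgeR's quasi-likelihood test (adjusted p = 0.0425). The call was lost in 9 of 14 alternatives, among them DESeq2 (adjusted p = 0.35), upper-quartile scaling (0.15) and each of 4 fits with 1 library left out. Those adjusted p were 0.256 without DMSO replicate 2, 0.0851 without DMSO replicate 3, 0.105 without JNJ replicate 1 and 0.317 in the fit lacking JNJ replicate 2. The estimate was 0.09 without JNJ replicate 2 and 0.33 without JNJ replicate 3, so single libraries set its size. MALAT1 was the most variable member, with a coefficient of variation of 16.4% in the JNJ libraries and 7.17% in the DMSO libraries.

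The ratio of NEAT1 to MALAT1 counts within a library does not depend on scaling. It was 1.83, 1.84 and 2.20 in the JNJ libraries, against 4.74, 5.44 and 4.56 in the DMSO libraries. The JNJ values were all below the DMSO values, which restates the NEAT1 fall that chose the set and is given as a description. Per kilobase of annotated exon, NEAT1 had 103 ± 8.16 CPM and MALAT1 137 ± 22.5 CPM with the inhibitor, while NEAT1 had 226 ± 10.1 CPM and MALAT1 119 ± 8.54 CPM with DMSO. By this measure NEAT1 was the higher of the pair with DMSO, while with the inhibitor its mean lay below that of MALAT1 by little more than the spread. The NEAT1 value uses all 22767 exonic bases and would be higher if most reads came from the short form. Annotated NEAT1 transcripts other than the longest have 512 to 3524 bases. The order of the pair with the inhibitor therefore depends on the length used and is not settled here.

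**Figure D1:**
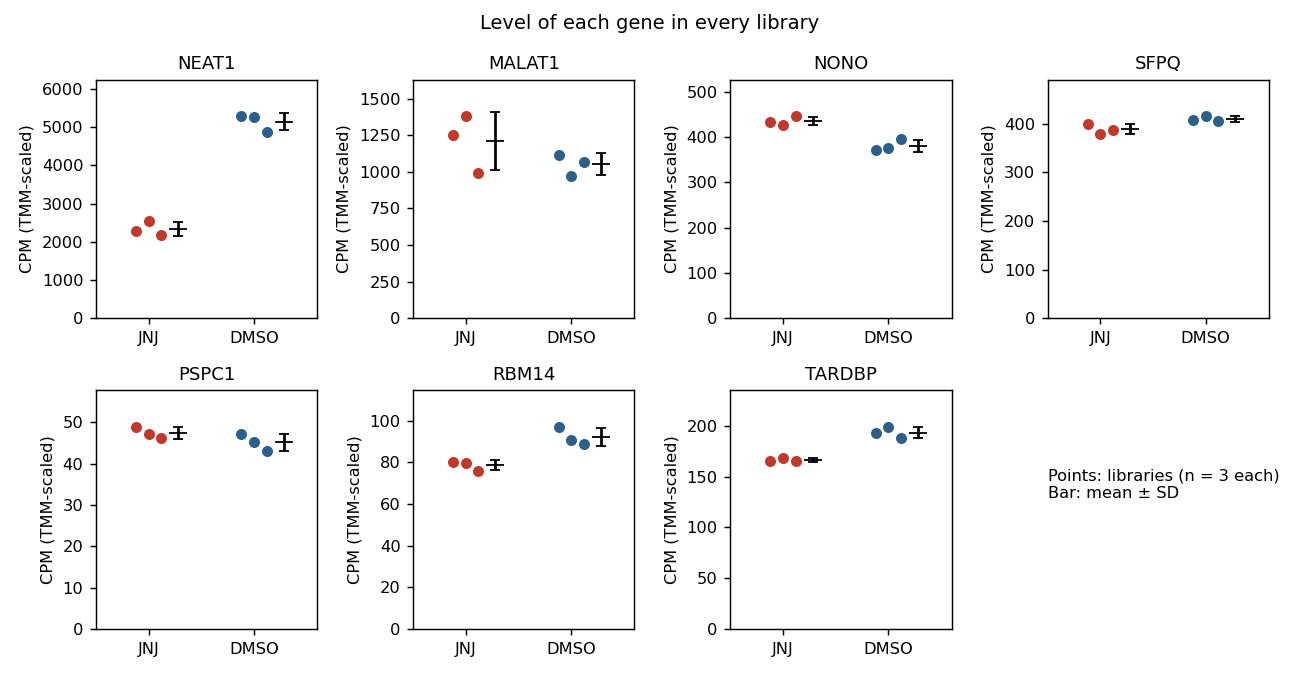
Level of each of the 7 genes in CPM (TMM-scaled, y axis) in the 3 JNJ and 3 DMSO libraries, with points for libraries and bars for mean ± SD. NEAT1 lies at 2179 to 2543 CPM in JNJ libraries and 4884 to 5293 CPM in DMSO libraries, whereas MALAT1 overlaps and the protein genes differ by small amounts.

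NONO, which joins RNA binding in paraspeckles with roles in transcription and DNA repair, had 433, 427 and 446 CPM in the JNJ libraries, against 371, 377 and 395 CPM in the DMSO libraries. All JNJ libraries lay above all DMSO libraries. It rose by a log2 fold change of 0.19 (SE 0.04, edgeR adjusted p = 0.00112), which is 1.14-fold. NONO (ENSG00000147140) lies on chromosome X from 71283192 to 71301168 in GENCODE release 29.

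SFPQ, the largest DBHS protein and like NONO required for stable NEAT1, had 399, 378 and 388 CPM in the JNJ libraries, against 408, 416 and 405 CPM in the DMSO libraries. The JNJ libraries all lay below, but the gap between the groups was narrow, and the log2 fold change of -0.08 (SE 0.04) did not pass (edgeR adjusted p = 0.175). With upper-quartile scaling it passed (-0.14, adjusted p = 0.0147). PSPC1, which marks paraspeckles but is not needed to form them, had 48.9, 47.1 and 46.2 CPM in the JNJ libraries, against 47.1, 45.2 and 43.1 CPM in the DMSO libraries. These groups overlapped, and the log2 fold change of 0.07 (SE 0.05) did not pass (edgeR adjusted p = 0.33).

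The balance within the DBHS family was read from count ratios inside each library. NONO over SFPQ was 1.09, 1.13 and 1.15 in the JNJ libraries, against 0.909, 0.906 and 0.976 in the DMSO libraries. These groups did not overlap, and the exact two-sided permutation p was 0.1, the smallest that 3 against 3 allows, so the design cannot reach 0.05 (0.167 adjusted over the 5 ratios tested). SFPQ over PSPC1 was 8.19 ± 0.18 with the inhibitor and 9.08 ± 0.38 with DMSO (exact permutation p = 0.1, adjusted 0.167). NONO over PSPC1 was 9.19 ± 0.41 with the inhibitor and 8.45 ± 0.66 with DMSO, and the groups overlapped (exact permutation p = 0.3, adjusted 0.375). Per kilobase of exon the order was NONO, SFPQ and PSPC1 in both groups, at 82.3 ± 1.84, 52.3 ± 1.40 and 9.85 ± 0.28 CPM with the inhibitor and 72.0 ± 2.42, 55.1 ± 0.75 and 9.37 ± 0.42 CPM with DMSO. Each step in that order was wider than the spread between libraries.

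RBM14, a coactivator with a prion-like domain that joins paraspeckle subunits, had 80.2, 79.9 and 75.8 CPM in the JNJ libraries, against 97.1, 90.8 and 88.7 CPM in the DMSO libraries. All JNJ libraries lay below all DMSO libraries, and RBM14 fell by 0.23 on the log2 scale (SE 0.05, edgeR adjusted p = 0.000675). TARDBP, which encodes TDP-43, an RNA-binding protein that promotes use of the early NEAT1 polyadenylation site, had 166, 168 and 165 CPM in the JNJ libraries, against 193, 199 and 188 CPM in the DMSO libraries. It also lay lower in every JNJ library and fell by 0.22 on the log2 scale (SE 0.04, edgeR adjusted p = 0.000357). The ratio of RBM14 to TARDBP counts was 0.473 ± 0.01 with the inhibitor and 0.477 ± 0.02 with DMSO, which overlapped (exact permutation p = 1.0), whereas NONO over TARDBP was 2.62 ± 0.08 with the inhibitor and 1.97 ± 0.11 with DMSO and did not overlap (exact permutation p = 0.1, adjusted 0.167). Per kilobase of exon TARDBP had 27.4 ± 0.28 CPM and RBM14 19.97 ± 0.63 CPM with the inhibitor, and TARDBP had 31.8 ± 0.91 CPM and RBM14 23.4 ± 1.10 CPM with DMSO.

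**Figure D2:**
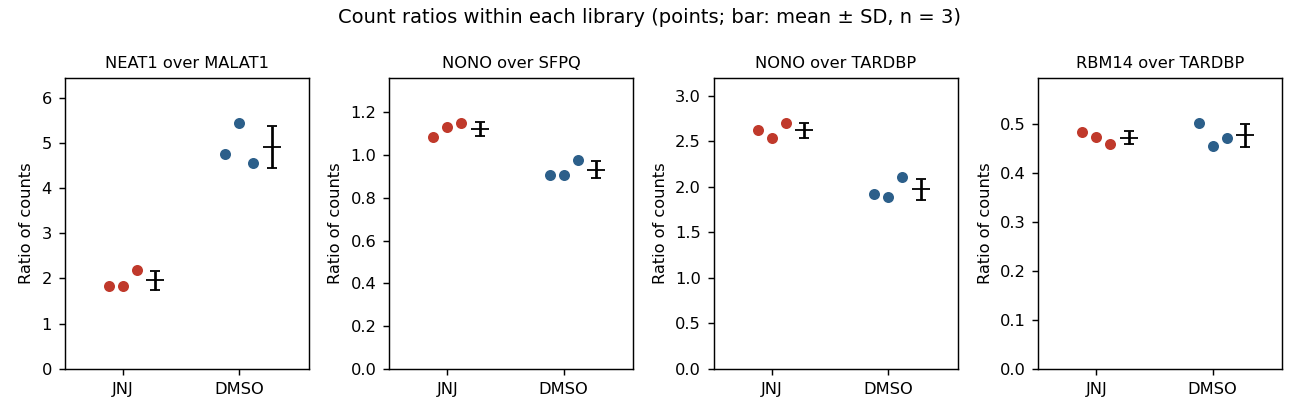
Ratios of read counts between pairs of genes inside each library (y axis), for 3 JNJ and 3 DMSO libraries, with points for libraries and bars for mean ± SD. NEAT1 over MALAT1 lies at 1.83 to 2.20 in JNJ libraries and 4.56 to 5.44 in DMSO libraries, NONO over SFPQ and over TARDBP do not overlap, and RBM14 over TARDBP does.

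Genes that could share reads with the members were low where they had counts. The kit marks strand, but the sources used here do not give the strand setting of the counting or its handling of ambiguous reads. The readthrough gene RBM14-RBM4 overlaps RBM14 on the same strand and had 1.28 CPM with the inhibitor and 1.64 CPM with DMSO. The antisense PSPC1-AS2 had 0.326 CPM with the inhibitor and 0.281 CPM with DMSO, and the gene annotated opposite MALAT1 (ENSG00000270117) had 1 count in all. The processed copies NONOP2 and PSPC1P1 were below 1 CPM in both groups. All of these levels were small beside those of the members. AL109811.4, annotated over TARDBP on the same strand, is absent from the deposited counts, so its level is not known.

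The wider set of genes for proteins found in paraspeckles went both ways. Of 38 listed, 34 were tested, 7 rose, 11 fell and 16 did not pass, with a median log2 fold change of -0.03, against 0.001 over all genes. With upper-quartile scaling 6 rose and 14 fell, with a median of -0.09. The share called, 52.9%, stood beside 37.1% of all genes and 56.2% of the 1728 genes with a mean of at least 100 CPM. The list as such was not tested.

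The splicing regulators HNRNPH1 and HNRNPH3 were among those that rose. HNRNPH1 rose to 1263 ± 12 CPM in JNJ libraries, against 797 ± 26.9 CPM in DMSO libraries (log2 fold change 0.66, SE 0.04, edgeR adjusted p = 2.79e-11), and HNRNPH3 to 294 ± 3.54 CPM, against 190.2 ± 3.78 CPM. HNRNPUL1 (0.48) and CPSF7 (0.40), a subunit of the cleavage factor CFIm, rose too. TAF15, an RNA-binding protein that also acts in transcription, fell to 174 ± 8.69 CPM, against 262 ± 5.25 CPM with DMSO (log2 fold change -0.59, SE 0.05, edgeR adjusted p = 2.99e-10). EWSR1, a relative of TAF15, had 374 ± 11.5 CPM with the inhibitor and 365 ± 6.45 CPM with DMSO and did not pass. HNRNPR (-0.56) and RBMX (-0.32) fell as well.

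Factors that set which NEAT1 form is made were looked at in the same list, beyond the rule for named genes and after their values had been seen. CPSF6, whose complex CFIm with NUDT21 favours the short form, fell to 102 ± 3.68 CPM, against 129 ± 0.62 CPM with DMSO (log2 fold change -0.33, edgeR adjusted p = 3.35e-06). CPSF7, named above as a subunit of CFIm, rose instead (0.40, edgeR adjusted p = 5.51e-08). NUDT21, the partner of CPSF6, had 21.3 ± 0.98 CPM with the inhibitor and 18.96 ± 1.14 CPM with DMSO, and HNRNPK, which favours the long form by holding back that complex, had 332 ± 1.84 CPM with the inhibitor and 354 ± 12.4 CPM with DMSO. Neither passed (edgeR adjusted p = 0.0776 for NUDT21 and 0.0976 for HNRNPK).

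**Figure D3:**
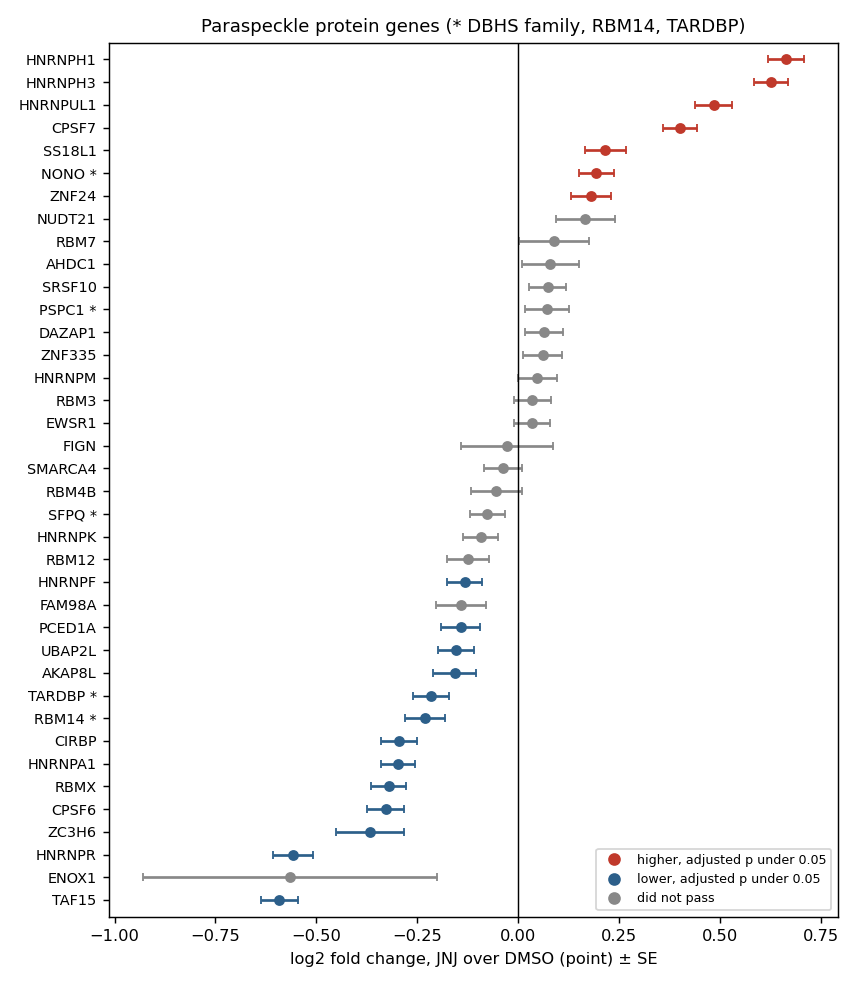
Log2 fold change (JNJ over DMSO, x axis, point ± SE) of genes for paraspeckle proteins, 33 of the 34 tested genes of the wider list and 5 members marked with an asterisk, coloured by edgeR call. HNRNPH1 and HNRNPH3 lie highest of those drawn at 0.66 and 0.63, TAF15 lies lowest at -0.59, and the asterisked genes lie between -0.23 and 0.19.

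Genes of the nuclear speckle, where MALAT1 gathers, also split. Of 20 tested, 6 rose, 8 fell and 6 did not pass, with a median of -0.10 (6 and 10 with upper-quartile scaling). The share called was 70%, beside 37.1% of all genes and 56.2% of genes with a mean of at least 100 CPM. CLK1, a kinase that releases SR proteins from speckles, fell to 187 ± 11.3 CPM, against 276 ± 10.2 CPM with DMSO, and RBM25, a splicing regulator, fell by 0.43 on the log2 scale. SRSF2, an SR protein and a common speckle marker, rose to 378 ± 7.51 CPM, against 285 ± 16.4 CPM with DMSO, and the kinase PRPF4B rose too (0.36).

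RNase P subunits, RNase Z and METTL16, which act on or bind the end of MALAT1, were counted together. Of 13 tested, 4 rose and 2 fell, with a median of 0.06, and 3 rose and 3 fell with upper-quartile scaling. The share called, 46.2%, was near the 37.1% of all genes. This count depended on single libraries: 3 passed when DMSO replicate 1, DMSO replicate 3 or JNJ replicate 1 was left out. METTL16, which binds the MALAT1 triple helix, rose to 32.0 ± 1.52 CPM, against 24.01 ± 1.70 CPM with DMSO (log2 fold change 0.41, edgeR adjusted p = 2.8e-05). RPP30, an RNase P protein, rose by 0.39 on the log2 scale. RPP14 (0.41, 7.28 CPM with the inhibitor and 5.49 CPM with DMSO) lost its call without DMSO replicate 2 (adjusted p = 0.0671) or DMSO replicate 3 (0.0511), and RPP25L (-0.36) without DMSO replicate 1 (0.084) or JNJ replicate 1 (0.0727).

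A list of 12 transcription and chromatin factors reported to act on the NEAT1 gene held 5 that rose and 2 that fell, with a median of 0.12 (5 and 3 with upper-quartile scaling). The share called was 58.3%, beside 37.1% of all genes and 56.2% of genes with a mean of at least 100 CPM. HSF1, the heat shock factor that induces NEAT1 in stressed cells, rose to 178 ± 5.36 CPM, against 111 ± 3.80 CPM with DMSO (log2 fold change 0.68, SE 0.05, edgeR adjusted p = 2.69e-11). NFKB1 (0.34) and the histone demethylase gene KDM6A (0.40) rose, and RUNX1 fell (-0.28). EPAS1, the hypoxia factor HIF-2alpha, also fell, to 112 CPM with the inhibitor, against 138 CPM with DMSO (-0.30, edgeR adjusted p = 6.36e-05), and is named after its values were seen.

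Of 8 transcripts reported to be held or controlled by paraspeckles, 4 were tested and 2 passed, both higher, where 20% of all genes were higher. Among genes with a mean of at least 100 CPM 31.4% were higher, a level that SLC7A2 and RIGI did not reach. SLC7A2, whose mouse counterpart gives the nuclear-retained CTN-RNA, had 39.5 ± 3.07 CPM with the inhibitor and 27.9 ± 1.61 CPM with DMSO (log2 fold change 0.50, edgeR adjusted p = 1.42e-06). CXCL8, which SFPQ represses in human cells until NEAT1 draws it away, had 255 ± 10.2 CPM with the inhibitor and 208 ± 8.03 CPM with DMSO (0.29, adjusted p = 2.2e-05). RIGI (0.25, edgeR adjusted p = 0.131) and PAICS (0.02, adjusted p = 0.727) did not pass.

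NEAT1 was set beside other long non-coding RNAs. Of 2668 such genes tested apart from NEAT1, 582 fell and 213 rose, with a median of -0.17, while of 13063 protein-coding genes 2196 fell and 3135 rose, with a median of 0.02. With upper-quartile scaling the counts were 665 lower and 187 higher for the non-coding genes and 3199 lower and 2501 higher for the coding ones, so the balance of the coding genes turned and that of the non-coding genes did not. At a mean of at least 100 CPM there were 24 others, MALAT1 among them, of which 11 fell, 5 rose and the lowest log2 fold change was -0.57, for TMEM161B-DT. SLC25A25-AS1, an antisense gene, rose most of these, to 233 CPM, against 114 CPM with DMSO. It is named after its values were seen, and without the strand setting its reads cannot be told from those of the opposite gene SLC25A25, which had 16.2 CPM with the inhibitor and 17.1 CPM with DMSO.

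In a list of 23 well-studied long non-coding RNAs 19 were tested, 3 rose and 11 fell, with a median of -0.23 (2 and 14 with upper-quartile scaling). The share called, 73.7%, was near the 67.7% of the 285 long non-coding genes with a mean of at least 10 CPM, of which 50.9% fell. KCNQ1OT1, which silences an imprinted cluster in cis, fell to 4.36 ± 0.49 CPM, against 7.39 ± 0.57 CPM with DMSO. UCA1 (-0.47) and OIP5-AS1 (-0.40) fell, and LUCAT1, a stress-induced RNA, rose (0.44). KCNQ1OT1 had the lowest log2 fold change of this list, -0.75.

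**Figure D4:**
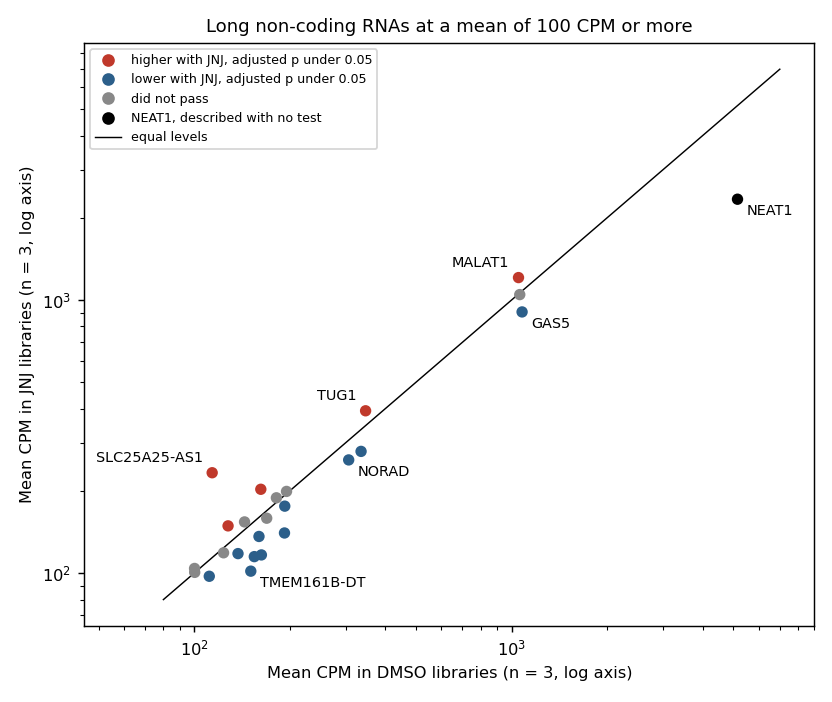
Mean CPM with DMSO (x axis, log) against mean CPM with the inhibitor (y axis, log) of 25 long non-coding RNAs at a mean of at least 100 CPM, with a line of equal levels. NEAT1 (black, no test) lies at 2339 CPM with JNJ and 5150.3 CPM with DMSO, far under the line, and MALAT1 lies just above it.

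Genes around NEAT1 and MALAT1 on 11q13.1 had log2 fold changes of -0.65 to 0.63. The lowest was that of TIGD3, which had 0.35 CPM with the inhibitor and 0.55 CPM with DMSO and did not pass. The genes called lower, CAPN1 (-0.15) and FRMD8 (-0.16, with groups that overlapped), fell by little. TIGD3, CAPN1 and FRMD8 are named after their values were seen. Of 17 listed, 15 were tested, 5 rose and 2 fell, with a median of 0.05, and 3 rose and 2 fell with upper-quartile scaling, where the median was -0.01. The share called, 46.7%, was near the 37.1% of all genes. Without DMSO replicate 3 the count was 4 higher and 0 lower. LTBP3, which binds latent TGF-beta, rose to 272 ± 5.09 CPM, against 175 ± 12.4 CPM with DMSO (log2 fold change 0.63, SE 0.05, edgeR adjusted p = 2.7e-10). PCNX3 (0.30) and SIPA1 (0.20) rose. SIPA1 lost its call with upper-quartile scaling (edgeR adjusted p = 0.0627) and without DMSO replicate 1 (0.0609) or DMSO replicate 2 (0.0992).

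The genes whose pattern over the 6 libraries was most like that of NEAT1 were sought among 12247 genes by the root mean square difference of centred log2 CPM, where 0 is an identical pattern. They were MSLN (0.07), H4C16 (0.09), the antisense GABPB1-AS1 (0.09), RFLNA (0.10) and H2AC6 (0.10). MSLN, the cell-surface protein mesothelin, had 26.1 CPM with the inhibitor and 53.3 CPM with DMSO, and H2AC6, a histone gene, had 20.4 CPM with the inhibitor and 40.7 CPM with DMSO. Those most like MALAT1 were PAMR1 (0.04), CLDN3 (0.06), KNSTRN (0.06), ALDH16A1 (0.06) and ZNF324 (0.06). PAMR1 (2.65 CPM with the inhibitor and 2.33 CPM with DMSO) and CLDN3 (2.39 and 2.03 CPM) were low. The MALAT1 groups overlapped, so this likeness also follows the spread between libraries of a group. The search used the same 6 libraries as the comparison, so the first list holds genes at a lower level in JNJ libraries by construction.

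The libraries carried the markers of their line. The summed level of 7 biliary epithelial markers was 4244 to 4525 CPM in the JNJ libraries and 5321 to 5593 CPM in the DMSO libraries, and KRT7, a keratin of bile duct cells, made up most of it. Summed markers of leukocytes were at or below 0.245 CPM, of fibroblasts at or below 1.59 CPM and of endothelium at or below 1.12 CPM in every library. Summed markers of hepatocytes were not low, at 352 to 389 CPM in the JNJ libraries and 336 to 351 CPM in the DMSO libraries. Of these 5 markers only SERPINA1 passed the filter, and it made up nearly all of the sum (373 CPM with the inhibitor and 345 CPM with DMSO). The part of the lower keratin level in the results above was not tested.

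**Figure D5:**
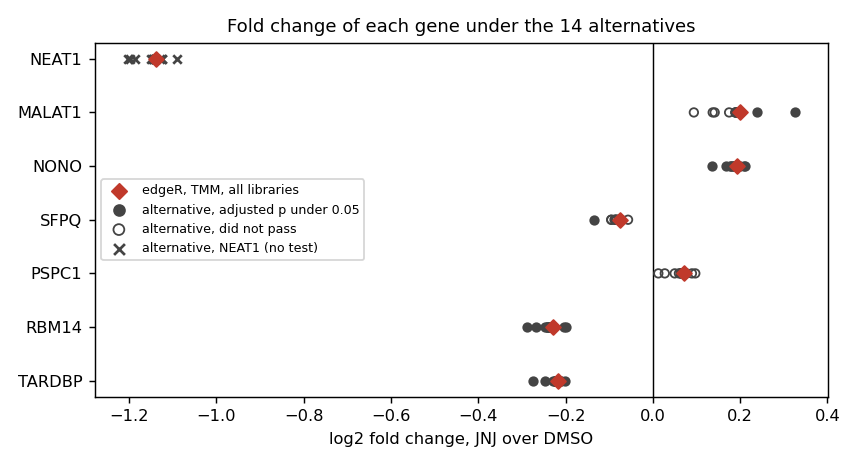
Log2 fold change of the 7 genes (JNJ over DMSO, x axis) as reported (diamonds) and under the 14 alternatives in tool, scaling, filter and libraries (circles, filled where the adjusted p was under 0.05, and crosses for NEAT1, which has no test). NONO, RBM14 and TARDBP pass in all 14, MALAT1 in 5 and SFPQ in 1.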

How the data were processed

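The deposited values are whole-number counts, not normalized, in 1 table that covers the 6 libraries. The submitters' processing notes name featureCounts 1.6.0, FastQC 0.11.8, the aligner STAR 2.7.9a, limma and edgeR. They also name the mouse build GRCm39, although all identifiers are human, so the build is uncertain. Per the labels' protocols, a stranded mRNA kit was used. Of 60649 rows, 44 repeats with a total of 0 were dropped. Symbols came from a name table (60463 genes) and GENCODE release 29 (130), and positions and exonic lengths from that release.

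Genes were kept with filterByExpr (minimum count 10, minimum total 15) and scaled by TMM. The groups were compared with edgeR 4.0.16 (glmQLFit, glmQLFTest, group alone) over 17371 genes, with Benjamini-Hochberg adjustment at 0.05. The SE of a log2 fold change is its size over the square root of F. Alternatives were DESeq2 1.42.0, limma-voom (limma 3.58.1), RLE and upper-quartile scaling, library sizes without NEAT1 and MALAT1, 2 other filters, the replicate number as a block, and leaving out each library. In simulated counts of JNJ against DMSO over 17134 genes, edgeR recovered 72.5% of genes changed 1.5-fold and 86.3% of those changed 2-fold. It also called 16 unchanged genes. The simulation held few changed genes (102 at 1.5-fold and 95 at 2-fold) and 1 fixed dispersion. Members other than NEAT1 changed by less than 1.5-fold, and recovery of such small changes was not simulated. Chi-square over its degrees of freedom was 2.69 to 9.08 between libraries of a group, so none were duplicates.

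The members and lists were chosen with earlier results of these data known. Named genes are the members, the 8 paraspeckle proteins and 4 of each other list with the smallest p, and the 5 genes most like NEAT1 and MALAT1 in pattern (mean log2 CPM of at least 1, prior count 2). List members TALAM1 and CCAT1 were not analysed here, and 2 genes that the rule names are not reported here, though the list counts include them. R 4.3.3 and Python 3.11.15 were used.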

Additional observations from a re-analysis of the deposited data

How the results depend on the processing

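Over the 14 alternatives NEAT1 had log2 fold changes of -1.20 to -1.09, and NONO (0.14 to 0.21), RBM14 (-0.29 to -0.20) and TARDBP (-0.27 to -0.20) kept their direction and call in all 14. MALAT1 stayed above 0 (0.09 to 0.33) and passed in 5, with adjusted p from 8.79e-05 with no filter to 0.35 with DESeq2. SFPQ passed with upper-quartile scaling alone, and PSPC1 in none of the 14 (adjusted p 0.255 to 0.879). Of all genes, 6448 were called, 53.9% of them higher, against 40.6% higher with upper-quartile scaling (2800 higher, 4099 lower), where the median log2 fold change of all genes was -0.06. The count of end maturation genes, 6 over all libraries, was 3 to 7 when 1 library was left out, and that of 11q13.1 genes, 7 over all libraries, was 4 to 7. The estimate of PAICS, 0.02, was -0.0344 with upper-quartile scaling and -0.0035 to 0.0466 when 1 library was left out. Of 686 values of 49 named genes under alternatives, 664 kept direction and side of the threshold, 16 lost their call, 4 gained one and 2 changed sign; the causes were not tested. The labels number the replicates alike in both groups, but the deviations of same-numbered libraries from their group means correlated at -0.02, -0.01 and 0.002, so the numbers were not taken as pairs. With the replicate number as a block 6132 genes passed, 1 member was higher and 2 lower, since MALAT1 did not pass (adjusted p = 0.0561). Errors here cover only the spread between 3 libraries a group.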
